A study of Mus musculus with 6 samples.

Results

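Primitive endoderm regulators are described here by the open chromatin called at 7 genes, namely Gata6, Gata4, Sox17, Sox7, Foxa2, Pdgfra and Dab2. The genes were chosen by name for their roles in this lineage, among 22359 protein-coding genes of the GENCODE M1 annotation. Earlier results of these data were known at that choice. Every peak that overlapped a gene, or the 20 kb before it or after it, was taken from each of 3 peak lists. Overlapping peaks of the lists were merged, which gave 20 regions at the 7 genes among 65518 regions in the genome.

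Primitive endoderm is the epithelium that separates from the epiblast in the inner cell mass of the blastocyst and later forms the parietal and visceral endoderm of the yolk sac. FGF signalling favours it over epiblast, and GATA6 opposes the pluripotency factor NANOG in the bipotent cells. GATA4, SOX17 and SOX7 then act in the committed cells, PDGFRA marks their surface and supports their survival, and DAB2 is needed for the epithelium to become organised.

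The 6 libraries came from 3 states of mouse cells of strain 129SV, with 2 technical replicates each. Open chromatin was measured by ATAC-seq, an assay that uses the Tn5 transposase to cut accessible DNA and tag the ends for sequencing. J1 embryonic stem cells (ESCs) were grown in DMEM with 15% fetal bovine serum, LIF at 1000 units/mL, and 2i, meaning 3 µM CHIR99021 and 1 µM PD0325901. The expanded potential stem cells (EPSCs) of the Deng conditions (D-EPSCs) were kept in N2B27 with 5% KSR, LIF at 1000 units/mL, 3 µM CHIR99021, 2 µM dimethindene maleate and 2 µM minocycline hydrochloride. Those of the Liu conditions (L-EPSCs) were kept in DMEM/F12 with 20% KSR, LIF at 1000 units/mL, 3 µM CHIR99021, 1 µM PD0325901, 0.3 µM A-419259, 5 µM XAV939, 4 µM JNK inhibitor VIII and 10 µM SB203580. LIF and CHIR99021 were thus present in all states, while PD0325901, an inhibitor of the MEK kinase below the FGF receptor, was absent from D-EPSC medium. The replicates are technical, so culture medium and culture cannot be told apart, and ESCs were grown on feeder fibroblasts or gelatin. By the study's methods, both kinds of EPSC were passaged without feeders before ATAC-seq. All peaks of a state stand in a single list without scores, so each value below is the presence, position or width of a peak, with no value per replicate, and no test could be made.

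There were 28965 peaks for ESCs, 50225 for D-EPSCs (1.73 times as many) and 46601 for L-EPSCs (1.61 times). Their median widths were 369, 364 and 358 bp. Sequencing depth is not given by these files, so at a missing peak a closed site and a shallow library cannot be told apart. Of 10 markers of pluripotent cells, 7 had an ESC peak and 10 had a peak of each EPSC list within 1 kb of a start. Of 10 markers of feeder fibroblasts, 2, 4 and 1 had an ESC, D-EPSC and L-EPSC peak there, and 6 had none in any list.

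The regulators were marked at their starts mainly in the EPSC lists. Within 1 kb of an annotated start of a protein-coding transcript, an ESC peak was present at 2 of the 7 genes, a D-EPSC peak at 6 and an L-EPSC peak at 5. Over all protein-coding genes the shares were 51.5%, 63.4% and 60.8%. Thus the regulators' share was 28.6% in the ESC list (95% Wilson interval 8.22 to 64.1%), 85.7% in the D-EPSC list (48.7 to 97.4%) and 71.4% in the L-EPSC list (35.9 to 91.8%). These intervals cover counting error only, and each of the 3 contains the share of all genes.

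The shares with an EPSC peak and no ESC peak lay further from those of all genes, though this depended on the starts used. Gata6, Gata4 and Sox7 had a start peak in the EPSC lists but not in the ESC list, which is 3 of 7 (42.9%, interval 15.8 to 75.0%) beside 9.16% of protein-coding genes. With the outermost start of each gene alone it was 2 of 7 (interval 8.22 to 64.1%) beside 9.10%, which lies inside the interval. Adding Foxa2, which had a start peak in D-EPSCs alone, 4 of 7 had a D-EPSC peak without an ESC peak (57.1%, interval 25.0 to 84.2%) beside 12.5% of all genes. An L-EPSC peak without an ESC peak was present at 3 of 7 beside 10.1%. Pdgfra and Dab2 had a start peak in all lists, 2 of 7 beside 50.4%, and Sox17 had none, 1 of 7 beside 35.1%. Both shares of all genes lie inside the regulators' intervals (8.22 to 64.1% and 2.57 to 51.3%). No regulator had an ESC peak without a D-EPSC peak, a combination that only 0.568% of all genes had.

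Genes without an ESC start peak form a narrower comparison. Of the 10844 protein-coding genes in this group, 25.7% had a D-EPSC start peak and 18.9% had one in both EPSC lists. Of the 5 regulators in the group, 4 had the former and 3 the latter. The plot of shares by list gives the regulators beside all genes.

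**Figure D1:**
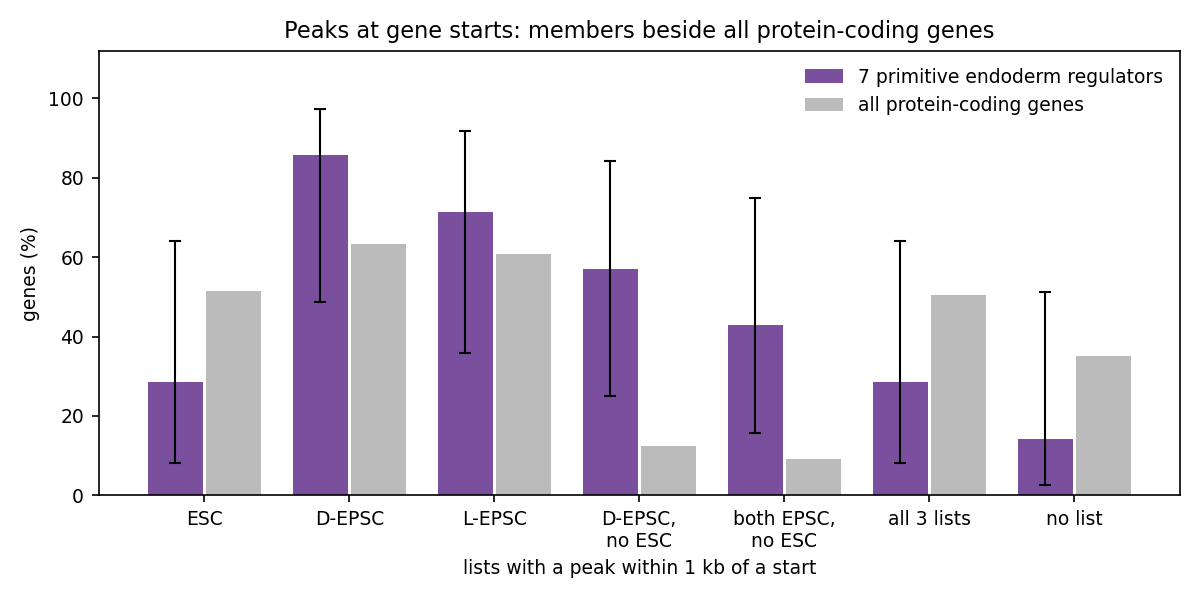
Share of genes (%) with a peak within 1 kb of a start, by list or combination of lists, for the 7 regulators (purple, with 95% Wilson intervals as error bars) and for all 22359 protein-coding genes (grey). The bars for D-EPSC without ESC reach 57.1% against 12.5%, and those for both EPSC lists without ESC 42.9% against 9.16%.

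Gata6, the zinc-finger factor at the head of the primitive endoderm programme, had no ESC peak in its window. Its single start lay in a region where the D-EPSC peak spanned 581 bp and the L-EPSC peak 424 bp, and whose midpoint was 39 bp before the start. The start of the lincRNA 1010001N08Rik lay in the same region, so the peak cannot be assigned to either gene alone. A wider region (D-EPSC 774 bp, L-EPSC 641 bp) lay 12567 bp before the start, and a D-EPSC peak of 281 bp lay 44473 bp after it. The nearest ESC peak to the Gata6 start was 166500 bp away.

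Gata4, the GATA factor that follows Gata6 in the committed cells, had peaks of all lists in its window, but ESC peaks were missing from its starts. The cluster of 3 starts inside the gene, at chr14:63864085 to 63864108 on the reverse strand, was covered by a D-EPSC peak of 1014 bp and, within it, an L-EPSC peak of 319 bp. Its nearest ESC peak lay 4300 bp from that region. The stretch shown is the centre of the region, just upstream of the starts, and it lay in the D-EPSC peak alone, since the L-EPSC peak covered the starts themselves. It held none of the 4 motifs searched (letters given with the motif counts), and 15 CpG.
Gata4 chr14:63864321-63864620, mm9, reverse strand: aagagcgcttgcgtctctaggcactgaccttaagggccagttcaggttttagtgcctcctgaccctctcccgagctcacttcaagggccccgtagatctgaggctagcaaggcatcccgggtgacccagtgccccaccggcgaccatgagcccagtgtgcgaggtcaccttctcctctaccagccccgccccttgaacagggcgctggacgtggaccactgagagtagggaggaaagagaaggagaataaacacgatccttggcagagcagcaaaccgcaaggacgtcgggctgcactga

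Other Gata4 regions were open in the ESC list as well. An intronic region 10625 bp before the inner starts was 820 bp wide in the ESC list, 740 bp in the D-EPSC list and 657 bp in the L-EPSC list, and it held 3 GATA matches over its whole width, though 0 in its central 400 bp. A region 4585 bp after them overlapped a coding exon by 454 bp and was 490 bp wide for ESCs, 439 bp for D-EPSCs and only 131 bp for L-EPSCs. The third, 19851 bp after a start, was 649, 696 and 634 bp wide and contained the start of Neil2, a neighbouring DNA glycosylase gene. The remaining region was a D-EPSC peak of 117 bp, the smallest width that list holds. Of the 5 Gata4 regions, 3 thus had a peak in all lists, and the ESC list had none at the internal starts and at the narrow D-EPSC peak.

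Sox7, an SRY-related factor that comes on in committed cells of the lineage, had a single region in its window, and that region covered its start. The D-EPSC peak was 451 bp wide and the L-EPSC peak 404 bp, with 275 bp shared, and the nearest ESC peak was 82814 bp from the start. The 300 bp shown end at the base before the annotated start. They are the most GC-rich of the stretches printed here, at 74.3% with 30 CpG. Capitals mark a GATA match, TGATAA, near the start.
Sox7 chr14:64562211-64562510, mm9, forward strand: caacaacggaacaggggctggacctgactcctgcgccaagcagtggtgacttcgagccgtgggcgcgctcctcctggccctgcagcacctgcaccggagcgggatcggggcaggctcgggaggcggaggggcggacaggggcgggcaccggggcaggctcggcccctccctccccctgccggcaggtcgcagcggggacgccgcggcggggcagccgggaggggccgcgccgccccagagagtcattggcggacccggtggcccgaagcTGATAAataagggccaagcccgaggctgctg

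Sox17, the SRY-related factor of definitive and extraembryonic endoderm, behaved differently. Its window held a single region, present in all lists, and its peaks were 1613 bp (ESC), 1866 bp (D-EPSC) and 1824 bp (L-EPSC) wide. These peaks stood among the widest 0.159%, 0.305% and 0.191% of their lists. The region lay within the gene, with its midpoint 3531 bp after the nearest start and its edge 2551 bp from it, and 1125 bp of it were coding sequence. Of the bases covered by either list, ESCs and D-EPSCs shared 84.2% and ESCs and L-EPSCs 75.2%. The central stretch, which is intronic, is shown because it was open in every list while the starts had a peak in none. It contained no match to the motifs searched.
Sox17 chr1:4482763-4483062, mm9, reverse strand: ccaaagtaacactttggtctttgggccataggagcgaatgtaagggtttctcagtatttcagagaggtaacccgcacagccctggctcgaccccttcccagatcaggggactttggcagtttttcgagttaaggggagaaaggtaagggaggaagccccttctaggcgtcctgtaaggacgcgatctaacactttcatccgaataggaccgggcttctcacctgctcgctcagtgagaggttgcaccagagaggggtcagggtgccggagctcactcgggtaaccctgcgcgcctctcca

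Foxa2, a forkhead pioneer factor of visceral and definitive endoderm, separated the EPSC lists from each other. All 3 annotated starts had a D-EPSC peak within 1 kb and none had an L-EPSC or ESC peak. The D-EPSC list had peaks of 528 and 401 bp there and another of 269 bp, 4914 bp after a start. Both EPSC lists had a peak 1712 bp before the outermost start, 323 bp wide under the Deng conditions and 227 bp under the Liu conditions, so the latter lay 1504 bp from the start. When the distance was set to 2.5 kb, Foxa2 therefore joined the genes with both EPSC lists and no ESC peak, making 4 of 7 beside 9.07% of all genes. The nearest ESC peak was 67790 bp away. The stretch shown is the centre of the D-EPSC start region, with the GATA match AGATAA in capitals.
Foxa2 chr2:147872293-147872592, mm9, reverse strand: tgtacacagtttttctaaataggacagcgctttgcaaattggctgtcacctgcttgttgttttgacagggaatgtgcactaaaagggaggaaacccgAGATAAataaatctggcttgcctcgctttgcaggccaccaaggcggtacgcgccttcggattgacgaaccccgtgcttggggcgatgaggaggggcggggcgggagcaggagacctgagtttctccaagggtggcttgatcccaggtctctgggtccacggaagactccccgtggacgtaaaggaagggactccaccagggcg

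Pdgfra, the receptor tyrosine kinase for PDGF-A, had a start region in all lists. The widths were 749 bp (ESC), 985 bp (D-EPSC) and 822 bp (L-EPSC), and the ESC peak lay wholly inside both EPSC peaks, with 749 shared bp each. The region covered the inner of its 2 starts, chr5:75552191, and the outer start had no peak within 1 kb. Both EPSC lists also had a peak 9062 bp before the outer start, of 281 and 292 bp, which shared 101 bp. After the gene lay an L-EPSC peak of 452 bp and a region with an ESC peak of 131 bp and an L-EPSC peak of 338 bp. Pdgfra is known in fibroblasts too, and the share of the 10 fibroblast markers with a start peak is given above for each list. The EPSCs had been kept without feeders before the assay, and the part of feeder cells in the ESC peak was not tested. The stretch shown follows the first exon of the inner start, within the start region that all lists share, and it held no motif match. The D-EPSC peak covered all of it, while the ESC and L-EPSC peaks ended inside it.
Pdgfra chr5:75552375-75552674, mm9, forward strand: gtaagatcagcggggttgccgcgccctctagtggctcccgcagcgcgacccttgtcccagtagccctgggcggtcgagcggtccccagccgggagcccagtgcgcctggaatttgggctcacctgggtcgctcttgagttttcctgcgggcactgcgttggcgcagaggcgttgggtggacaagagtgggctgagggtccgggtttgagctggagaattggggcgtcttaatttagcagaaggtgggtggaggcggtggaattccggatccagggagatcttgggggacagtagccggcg

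Dab2, an endocytic adaptor of the visceral endoderm surface, likewise had a start region in all lists. The widths were 329 bp (ESC), 898 bp (D-EPSC) and 412 bp (L-EPSC), and the region lay within 1 kb of 5 of its 11 starts, the outermost not among them. The ESC peak shared 36.6% of the covered bases with the D-EPSC peak and 63.9% with the L-EPSC peak. An L-EPSC peak of 223 bp stood alone, with its midpoint 9995 bp before the nearest start. The other Dab2 entry of the annotation, inside the gene, had 0 peaks at its start.

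The plot of peak positions shows the 7 windows together, and the plot of widths gives the bases of peak at the starts.

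**Figure D2:**
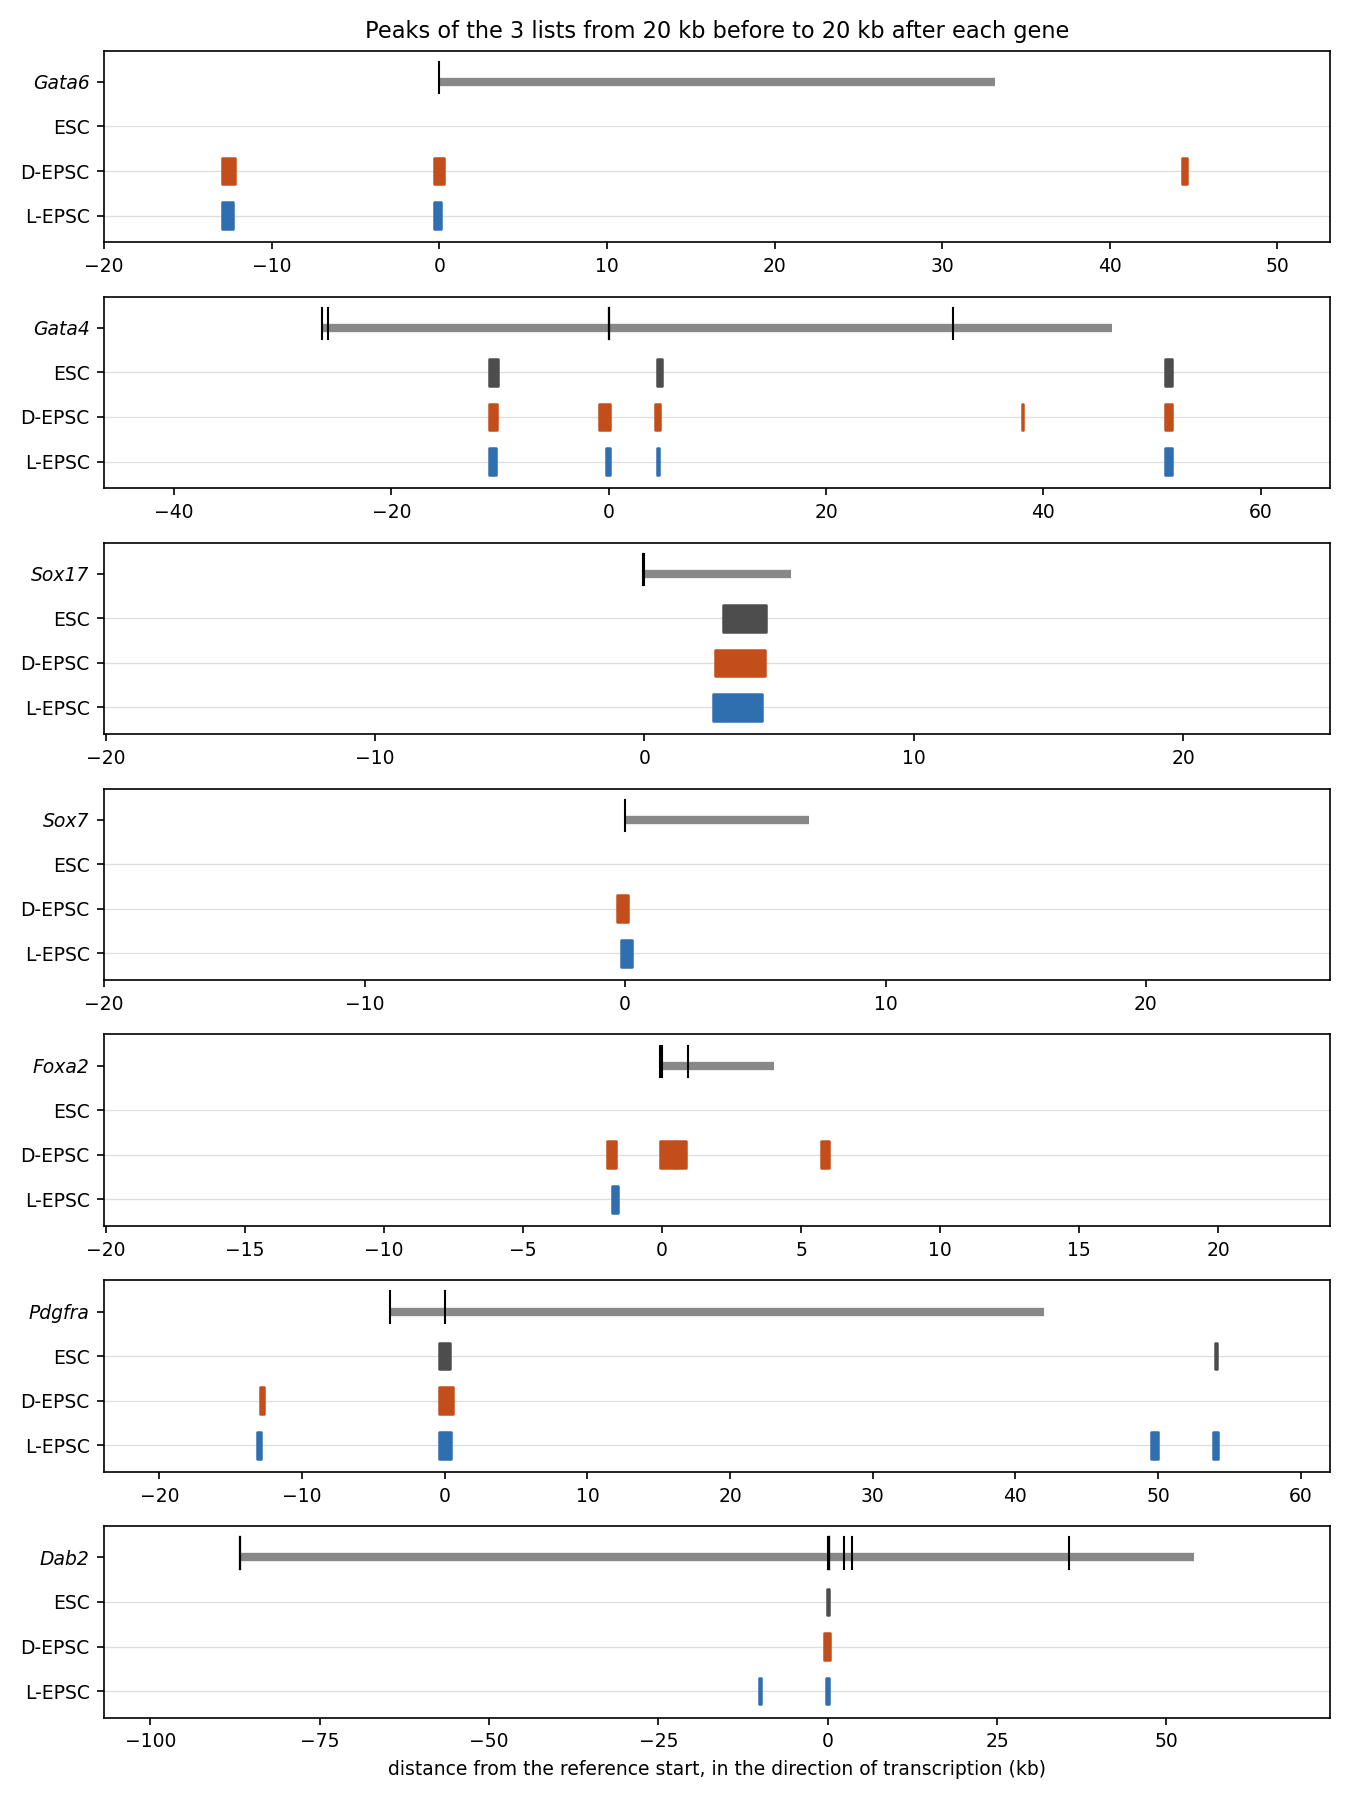
Peaks of the ESC (grey), D-EPSC (orange) and L-EPSC (blue) lists at the 7 genes, by distance (kb) from the start nearest to a region, in the direction of transcription. Thick grey bars are genes and black ticks their protein-coding starts. Gata6, Sox7 and Foxa2 have no ESC peak in their windows, and Sox17 has the same single region in all lists.

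**Figure D3:**
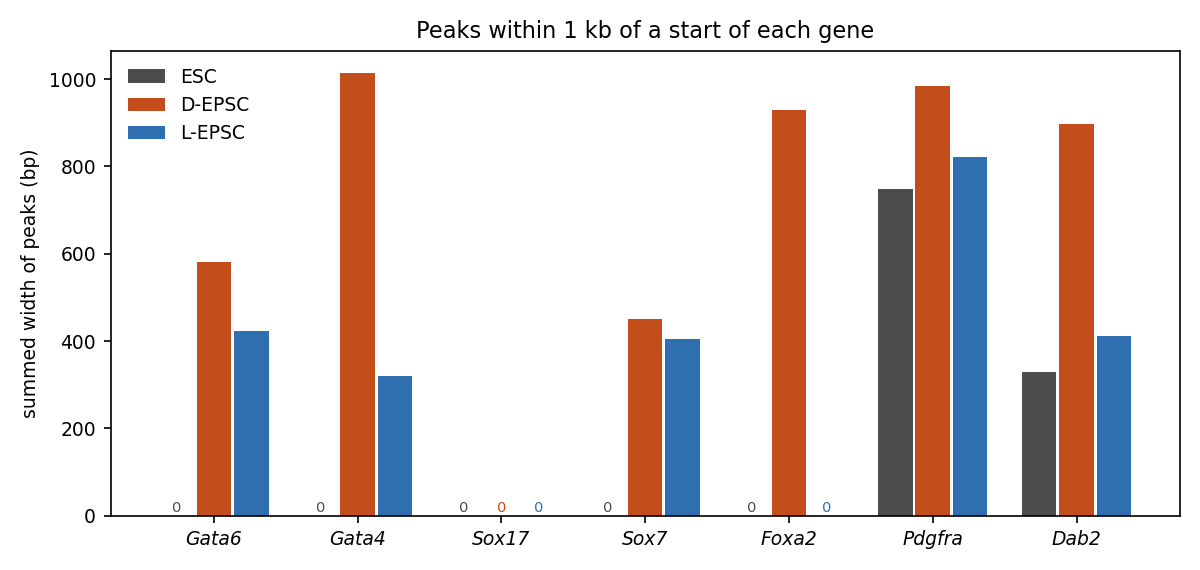
Summed width (bp) of the peaks within 1 kb of a start of each gene, by list, with 0 written where a list had none. Only Pdgfra (749 bp) and Dab2 (329 bp) have a value above 0 in the ESC list, and the D-EPSC value is the largest of the 3 lists at each of the 6 genes with any start peak.

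Over the whole windows, the 7 genes had 7 peaks in the ESC list, 17 in the D-EPSC list and 15 in the L-EPSC list. The EPSC totals were 2.43 and 2.14 times the ESC total, beside 1.68 and 1.58 times over the windows of all protein-coding genes. In covered bases the windows held 4781 bp of ESC peaks, 10644 bp of D-EPSC peaks (2.23 times) and 7800 bp of L-EPSC peaks (1.63 times). The whole lists covered 12.6 Mb (ESC), 23.4 Mb (D-EPSC) and 21.0 Mb (L-EPSC), so the L-EPSC ratio in bases was close to that of the whole lists. Gata6, Sox7 and Foxa2 had 0 ESC peaks, 3 of 7 beside 24.9% of protein-coding genes, while each of the 7 had at least 1 peak in both EPSC lists, where 18.0% (D-EPSC) and 19.3% (L-EPSC) of protein-coding genes had 0. Long genes have long windows, so the density per 10 kb is the fairer value. Its median over the regulators was 0.0553 (ESC), 0.233 (D-EPSC) and 0.227 (L-EPSC), beside 0.218, 0.374 and 0.346 over all protein-coding genes. The regulators' median was below that of all genes in each list, but single genes varied, from 1 D-EPSC peak in the Dab2 window to 4 in the much shorter Foxa2 window.

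The 20 regions fell into 5 of the 7 possible classes. There were 6 in all lists (30.0%, interval 14.5 to 51.9%), 6 in both EPSC lists, 5 in D-EPSCs alone, 2 in L-EPSCs alone and 1 in ESCs and L-EPSCs. Among the 52000 regions within 20 kb of any protein-coding gene, the shares of these classes were 35.9%, 18.7%, 21.1%, 15.1% and 2.68%. The 13 regions without an ESC peak made 65.0% (interval 43.3 to 81.9%) beside 54.8% of those regions, which lies inside the interval. No region was found in the ESC list alone, where the background was 4.44%. The class of both EPSC lists was thus 30.0% of the regulators' regions beside 18.7%, which also lies inside the interval of 14.5 to 51.9%. Several regions belong to the same gene, and these intervals treat them as independent, so they may be too narrow.

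The 7 start regions and the other 13 overlapped in width and base composition, and their medians were not tested against each other. At the starts the median width was 581 bp (401 to 1014 bp), the median GC content 63.0% and the median CpG observed/expected ratio 0.71. The other 13 had a median width of 452 bp (117 to 1962 bp), 55.0% GC and a ratio of 0.47. The observed/expected ratio divides the CpG dinucleotides found by those that base content alone predicts, and high values mark CpG islands. Over the 20 regions the medians were 58.8% GC and 0.59, beside 53.5% and 0.29 over all regions of the genome. Away from the starts the ratios spanned the whole range, from 0.00 at the narrow Gata4 region and the L-EPSC region of Dab2, and 0.05 and 0.21 at the downstream and upstream Gata6 regions, to 0.75 at Sox17 and 0.91 at the intronic Gata4 region.

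**Figure D4:**
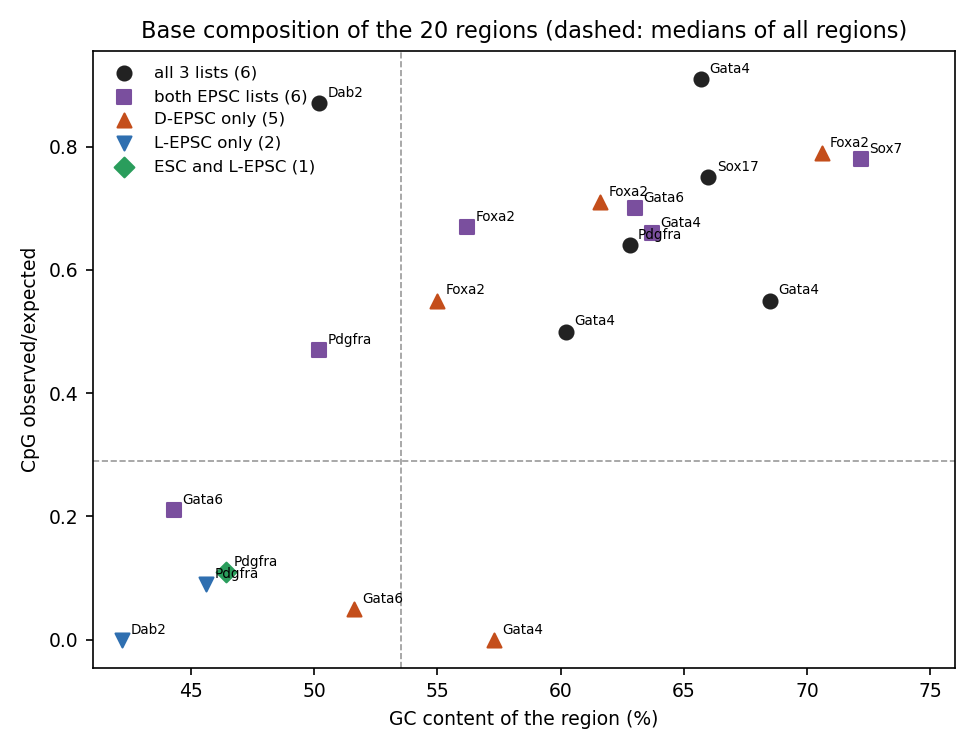
GC content (%) and CpG observed/expected ratio of each of the 20 regions, labelled by gene, with symbols for the lists that had a peak in it. Dashed lines mark the medians of all 65518 regions, 53.5% and 0.29, and 14 of the 20 regions lie above the CpG line.

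Of the peaks at the regulators, 5 of 7 in the ESC list, 12 of 17 in the D-EPSC list and 9 of 15 in the L-EPSC list were wider than their list's median. The regulators' medians were 649 bp for the 7 ESC peaks, 528 bp for the 17 D-EPSC peaks and 412 bp for the 15 L-EPSC peaks. In the 12 regions with a peak of both EPSC lists, the D-EPSC peak was the wider in 11, beside 54.4% of the 33782 such regions in the genome, and Pdgfra gave the exception. In the 6 regions shared by ESCs and D-EPSCs the ESC peak was wider in 2, both at Gata4, beside 29.1% of all such regions. In the 7 shared by ESCs and L-EPSCs it was wider in 3, all at Gata4, beside 31.3%. Width depends on depth as well as on the site, and depth is unknown here.

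Motifs of the regulators' own families were searched for exact matches, on either strand, in the 400 bp around each region's midpoint. In the 5 regions narrower than this the search ran past the region's edges, and the GATA match at the downstream Gata6 region and the SOX match at the 117 bp Gata4 region lay outside the peaks. The GATA motif was searched as TGATAA and as AGATAA, and likewise as TGATAG and as AGATAG, and was found in 6 of 20 regions, beside 34.4% of all regions. The SOX motif was searched as ACAATG and as ACAAAG, and likewise as ACAATA, and was found in 8 of 20 beside 46.4%, and the FOX motif, searched as TGTTTAC and as TATTTAC, in 1 of 20, at Pdgfra, beside 7.75%. The octamer ATGCAAAT was found in 0 of 20 beside 2.85%. The regulators' shares were 30.0% for GATA (interval 14.5 to 51.9%) and 40.0% for SOX (21.9 to 61.3%), and both intervals contain the share of all regions. Here too the intervals treat regions of the same gene as independent. In the 300 bp used for the printed stretches, a GATA match was present in 26.6% of all regions. The GATA matches above are therefore of a kind that many regions hold, and a match is not a measured binding site.

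Gata6 lies on chromosome 18 of mm9, from 11052508 to 11085633 on the forward strand. Its start region ran from 11052179 to 11052759 and its upstream region from 11039551 to 11040331. The other genes lay at chr14:63817759-63890529 (Gata4, reverse strand), chr1:4481009-4486494 (Sox17, reverse), chr14:64562511-64569569 (Sox7, forward), chr2:147868613-147872705 (Foxa2, reverse), chr5:75548316-75594229 (Pdgfra, forward) and chr15:6249788-6390712 (Dab2, forward). Of the 20 regions, 8 had their midpoint in an intron, 5 before the gene, 5 after it, 1 in a coding exon and 1 in the non-coding part of an exon.

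Equal list lengths left the start pattern of each of the 7 genes as it was. The ESC list was the shortest and was kept whole, down to 128 bp, so a missing ESC peak could not appear. Whether a shallower ESC library gave the pattern was therefore not tested. When only the 28965 widest peaks of each list were kept, the narrowest peak kept was 309 bp wide for D-EPSCs and 279 bp for L-EPSCs. Gata6, Gata4 and Sox7 again had both EPSC lists without ESC, beside 6.07% of protein-coding genes, and 4 of 7 had a D-EPSC peak without ESC beside 9.22%. Away from the starts, the L-EPSC peak 1712 bp before Foxa2 was lost, and 16 regions were left in the windows. The choice of starts mattered more. With the outermost start of each gene alone, 0 of 7 had a start peak for ESCs, 3 for D-EPSCs and 2 for L-EPSCs, beside 49.0%, 61.0% and 58.2% of all genes, because the start peaks of Gata4, Pdgfra and Dab2 lay at inner starts. The 2 genes with both EPSC lists and no ESC peak were then Gata6 and Sox7.

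Other genes of primitive endoderm and its descendants were counted in 4 groups, 44 genes in all. Of these, 20 were marked in the ESC list, 33 in the D-EPSC list and 34 in the L-EPSC list, beside 51.5%, 63.4% and 60.8% of all genes, and 12 had both EPSC lists and no ESC peak. Sox2 and Eomes, in the group of other regulators, are also counted below among the pluripotency and trophoblast markers. Per group this combination was found at 0 of 6 signalling genes, 7 of 12 basement membrane and parietal endoderm genes, 3 of 14 visceral endoderm genes and 2 of 12 other regulators, beside the 9.16% of all genes. The groups thus differed from each other in these counts, which were not tested.

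The basement membrane group had the most such genes. The gene lists were fixed with earlier results of these data known, so the count is a description only. Lamb1, a laminin chain, had 1100 bp of D-EPSC peak and 503 bp of L-EPSC peak at its start and 0 bp in ESCs. Col4a1 and Col4a2, the collagen IV chains, are divergent genes that shared a start peak (D-EPSC 870 bp, L-EPSC 615 bp), so they count as 1 site. Sparc, Fst, Pth1r and Serpinh1, the collagen chaperone, completed the 7, with D-EPSC values of 405, 976, 386 and 986 bp. The L-EPSC peak of Serpinh1 was only 129 bp wide. Lama1, Lamc1, Nid2 and Thbd had a peak in all lists, and Nid1 had none. With equal list lengths, 5 of the 12 had both EPSC lists only.

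Of the visceral endoderm genes, 7 of 14 had a start peak in no list, beside 35.1% of all genes, among them the serum protein genes Ttr, Afp and Apoa1. Hnf4a and Otx2, transcription factors of this tissue, were among the genes with both EPSC lists and no ESC peak. The Hnf4a peaks were 119 and 136 bp wide, near the minimum of the lists. Lefty1 had a D-EPSC peak alone, of 347 bp, and Ihh an L-EPSC peak alone, of 127 bp. With equal list lengths, 1 of the 14 had both EPSC lists without ESC.

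All 6 signalling genes had a peak in all lists, Fgf4, Fgfr1, Fgfr2, Grb2, Pdgfa and Lifr, beside 50.4% of all genes. This is the most common pattern among all genes, and Pdgfra shared it with its ligand gene Pdgfa. Among the other regulators, Gata5 had 972 bp of D-EPSC peak and 682 bp of L-EPSC peak, Sox18 had 790 and 304 bp, and neither had an ESC peak. Foxa1, a paralogue of Foxa2, had an L-EPSC peak of 679 bp alone, whereas Foxa2 had D-EPSC start peaks alone. Foxa3, the remaining paralogue, had a peak in all lists, of 1012, 1097 and 1083 bp.

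The combination of both EPSC lists without ESC was not particular to endoderm genes. It was found at 3 of 10 pluripotency markers, which were Nanog, Esrrb and Tdgf1, at 3 of 10 trophoblast markers, which were Cdx2, Elf5 and Ascl2, and at 1 of 10 fibroblast markers, Col1a1, beside the 9.16% of all genes, to which the fibroblast count is close. With equal list lengths these counts were 2, 2 and 1. Of the trophoblast markers, 4, 7 and 7 had an ESC, D-EPSC and L-EPSC start peak. Nanog, which opposes Gata6 in the blastocyst, had 435 bp of D-EPSC peak and 238 bp of L-EPSC peak, and so shared the pattern of Gata6 in the full lists. With equal list lengths its L-EPSC peak was lost, while both EPSC peaks at the Gata6 start remained.

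**Figure D5:**
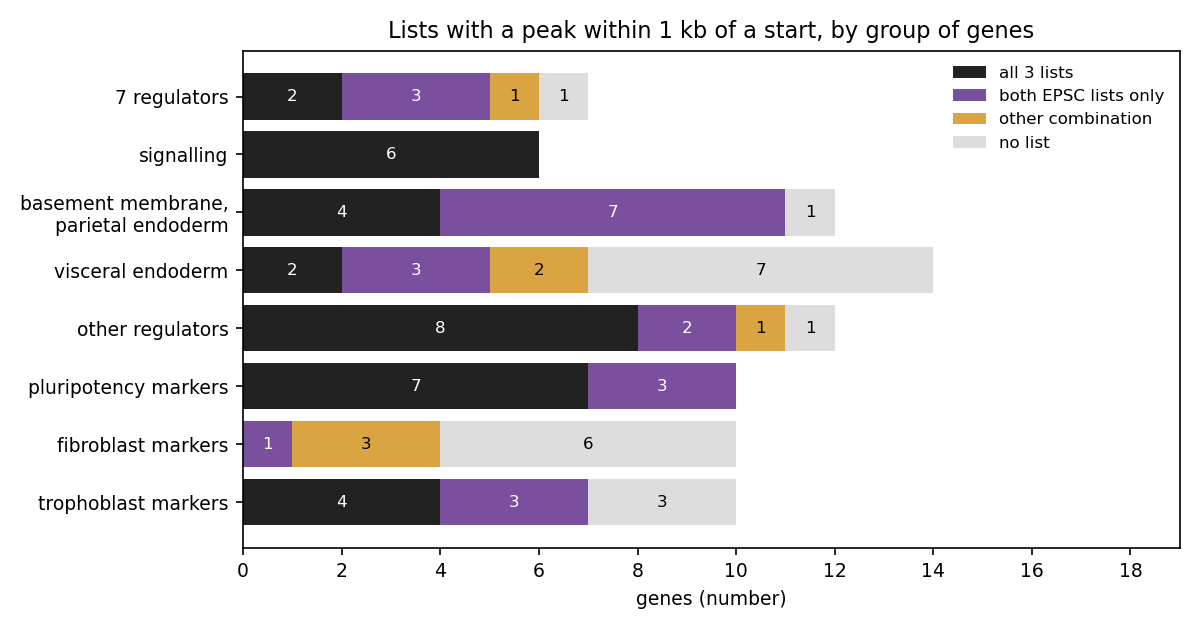
Number of genes by the lists with a peak within 1 kb of a start, for the 7 regulators, 4 other groups of primitive endoderm genes and 3 groups of cell type markers. The purple segment, both EPSC lists only, holds 3 of 7 regulators and 7 of 12 basement membrane genes, and is absent from the signalling genes. Among the basement membrane genes, Col4a1 and Col4a2 share a start peak.

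Beyond the windows, 7 more regions lay between 20 and 50 kb from the genes, 4 at Gata4, 1 at Pdgfra and 2 at Dab2. The nearest was 20493 bp after Gata4, was found in all lists and was 783 bp wide. Gata6, Sox17, Sox7 and Foxa2 had none, so the absence of ESC peaks at Gata6, Sox7 and Foxa2 extended to 50 kb. The protein-coding genes whose bases of peak per window were most like the regulators' median (329 bp for ESCs, 1521 bp for D-EPSCs and 1065 bp for L-EPSCs) were Dph2, Rab11a and Plekha3, at distances of 0.02, 0.04 and 0.10 on the log2 scale over the 3 lists.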

How the data were processed

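ATAC-seq was carried out on ESCs, D-EPSCs and L-EPSCs, with 2 technical replicates each. The authors trimmed reads with Trim Galore 0.6.3 after FastQC 0.10.1, aligned them to mm9 with Bowtie2 2.3.5, filtered for proper pairs using SAMtools 1.10, and ran the peak caller MACS with defaults. How replicates were combined, and whether duplicates, the Tn5 offset or blacklisted regions were treated, is not given in the sources used here. Such steps can move peak edges and change which weak peaks are called. The deposited files hold peak positions in bp (chromosome, start, end, running name) and no scores, counts or p-values, so depth per sample is unknown and no test across samples was made.

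Genes and sequence came from GENCODE M1 and NCBIM37, the assembly mm9. Peaks sharing at least 1 bp were merged into regions, and windows reached 20000 bp beyond each gene. A start peak overlapped 1000 bp on either side of a protein-coding transcript start. Motifs were searched in 400 bp around region midpoints. Intervals are 95% Wilson intervals. The 44 other genes and 30 markers were all found, Tfcp2l1 and Tfap2c under older symbols. The regulators and all gene lists were chosen with earlier results of these data known. All 7 regulators were named, with other genes whose start pattern was neither all lists nor none (a few of the rest were named after their values were seen). 1 item is not reported here. Python 3.11.15 was used, together with pysam 0.24.0, numpy 2.4.6 and matplotlib 3.10.9, and 3 of 3 steps matched bedtools 2.31.1 or the known answer on simulated data.

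Alternatives were other windows, start distances and start sets, a larger overlap for merging, midpoints, whole regions for motifs, and lists of equal length. Leaving out the Neil2 region and using all annotated starts were added after seeing the data.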

Additional observations from a re-analysis of the deposited data

How the results depend on the processing

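Of 69 summary values under the alternatives, 66 stayed within 1.5 times the reported value and 3 moved. These are counts, shares and widths without a sign, so none could change direction. ESC values under equal list lengths could not move, because the ESC list was kept whole. The 3 that moved were the counts with the outermost start alone, 0 of 7 regulators for ESCs, 3 for D-EPSCs and 2 for L-EPSCs. The count of both EPSC lists without ESC went from 3 to 2 there, which is counted as within 1.5 times. Of 84 values for a single gene and list, 74 stayed within that range and 10 moved, under windows of 10 or 50 kb or under lists of equal length. Using all annotated starts left the member counts at 2, 6 and 5. No replicate could be left out, and the spread between replicates could not be given, since each state has a single list. No paired analysis was possible because the lists carry no replicate numbers and no result comes from a test. Unknown depth limits every statement on a missing peak.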
